A study of Mus musculus with 426 samples.

Results

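The cells described here are the leukocytes that were sorted from primary pancreatic tumours of 3 mice by the surface protein CD45, read one cell at a time. A cell was kept where at least 500 genes had a count of 1 or more and its counts came to at least 10000. This kept 56 of the 58 CD45+ single cells: 22 from mouse 1, 20 from mouse 2 and 14 from mouse 3. The 2 cells left out, both from mouse 3, held 10 and 61 counts. In the whole series 370 of 420 single cells passed the same filter, and the series also holds 6 bulk libraries.

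The study read messenger RNA and genomic DNA of the same cell in a single tube. The hosts were male C57BL/6 mice aged 6 to 8 weeks, and all cells come from tumours that had grown for 6 to 8 weeks after an injection into the pancreas of 50000 cells of the line KPC1199-EGFP, suspended in matrigel. KPC1199-EGFP is a mouse pancreatic cancer line that carries a green fluorescent protein, so every mouse, that is every replicate, bore a tumour of the same line, and no untreated or tumour-free pancreas is among the groups compared. Tumours were dissociated with collagenase D and trypsin, stained for EpCAM and CD45 and with Calcien Violet (spelt as in the labels), and sorted as CD45+, GFP+, EpCAM+ or GFP+EpCAM+ cells. The labels call the CD45+ cells stromal. The filter kept 76 GFP+, 25 EpCAM+ and 31 GFP+EpCAM+ cells of the same 3 mice, and these serve only for comparison.

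CD45, the product of Ptprc, is a phosphatase on the surface of nearly all nucleated blood cells. Pancreatic tumours are rich in myeloid cells: macrophages, which take up debris and display antigen, neutrophils, which are short-lived and carry granules of proteases, and monocytes, from which many tissue macrophages derive. T cells recognise antigen through a receptor that signals through the CD3 proteins, and natural killer cells kill without such a receptor.

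The libraries differed in depth and in a background that came with the DNA. The 56 cells held from 10805 to 7356936 RNA counts, with a median of 784903, and from 8709 to 1689367 DNA counts, with a median of 826136. Reads were divided by position, exonic reads being taken as RNA, so exonic reads of genomic DNA stand in the RNA counts. Olfactory receptor genes, which leukocytes are not known to use widely, were taken as a gauge of this: between 0.178% and 39.02% of 1125 such genes had a count in a cell, with a median of 24.4%. This percentage followed the cell's DNA counts on a log scale, with a Pearson r of 0.903 and a Spearman rho of 0.952 over the 56 cells, and r was 0.943, 0.879 and 0.896 within mice 1, 2 and 3. The 2 measures share the library. The number of genes with a count followed DNA counts likewise (r = 0.915, rho = 0.927) and RNA counts little (r = 0.282, rho = 0.141).

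**Figure D1:**
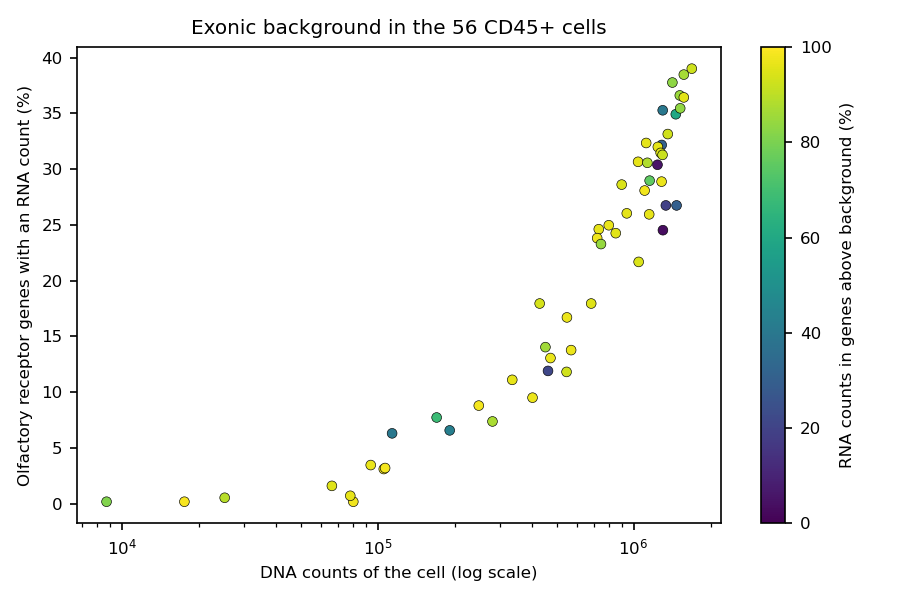
Share of 1125 olfactory receptor genes with an RNA count (vertical axis, %) against the DNA counts of the same cell (horizontal axis, log scale) for the 56 CD45+ cells, with the share of RNA counts in genes above the cell's own background as colour. The share of olfactory receptor genes rises from 0.178% to 39.02% with DNA counts, and the cells with the fewest counts above background (dark points) lie mostly among the DNA-rich ones.

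A count of 1 therefore does not show that a cell used a gene. A gene was called carried by a cell only where it had at least 10 counts, at least 100 CPM (its count as a share of the cell's counts, scaled by 1000000) and at least 3 times the 99th percentile of that cell's olfactory receptor genes. The difference was large for lineage genes. Cd28, a T-cell co-receptor, had a count in 34 of the 56 cells and was carried by 0. Clec9a, a receptor of a dendritic cell subset, had a count in 35 cells and Kit, the stem cell factor receptor of mast cells, in 27, and both were carried by 0. In each list the members with a count in the most cells were carried by fewer. Among macrophage genes Cd68, Apoe, C1qb and Aif1 had a count in 52, 49, 45 and 43 cells and were carried by 19, 18, 16 and 13. Among neutrophil genes Il1b, Il1r2, Cxcl2 and Csf3r had one in 54, 50, 47 and 45 and were carried by 37, 25, 24 and 9. Among T-cell genes Il7r and Ctla4, with a count in 35 and 30 cells, were carried by 3 and 2. The erythroid gene Hba-a2 had no count in any cell. Ptprc itself had a count in 53 cells and was carried by 12, whereas Fcer1g, an immunoreceptor adaptor chain, was carried by 38.

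Several cells stood apart from the label of the sort. Of 12 pan-leukocyte genes (Ptprc, Laptm5, Coro1a, Cd52, Cd53, Srgn, Lcp1, Fcer1g, Tyrobp, Arhgdib, Rac2 and Cytip), at least 1 was carried by 52 of the 56 cells and at least 3 by 45. The 4 cells that carried none of them were cells 24, 27, 31 and 41 of mouse 1. Mouse 1 cell 28 and mouse 2 cell 30 carried 3 and 8 epithelial markers, and the DNA of mouse 3 cell 80 resembled that of GFP+ cells. These 7 cells were singled out after their values were seen, and counts that lead a paragraph below are also given for the other 49. Of the 76 GFP+ cells, 27 carried at least 1 pan-leukocyte gene and 3 carried at least 3.

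Each cell was assigned to the list of lineage markers of which it carried the most, with at least 3 needed. Myeloid cells made up most of the sort. Neutrophil-like cells numbered 19 of 56, or 33.9% (95% exact binomial interval 21.8 to 47.8), and macrophage-like cells 17, or 30.4% (18.8 to 44.1). T-like cells numbered 5 (8.93%, 2.96 to 19.6) and cells like natural killer cells 2 (3.57%, 0.435 to 12.3). A monocyte-like, a dendritic-like and a platelet-like cell were found once each, 1 cell tied between lists, and 9 cells (16.1%, 7.62 to 28.3) reached 3 markers of no list. B-cell-like and mast-cell-like cells numbered 0 of 56, where an exact interval reaches up to 6.38%. These intervals cover counting error only.

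The rule was run on the GFP+ cells in the same way. Of 76 GFP+ cells 57 had no type, 17 were assigned to the monocyte list, 2 tied between lists, and 0 were assigned to the macrophage, neutrophil, dendritic, T, natural killer, B, mast or platelet list. Nr4a1, a member of the monocyte list, was carried by 33 of 76 GFP+ and 22 of 56 CD45+ cells, so a monocyte-like call alone did not separate the sorts. The monocyte-like CD45+ cell did not carry Nr4a1 and reached 8 of the 14 genes through others, Ly6c2, Ccr2, Lyz2 and Plac8 among them. Without the 7 cells in doubt, 17 of 49 cells were neutrophil-like, 16 macrophage-like and 5 T-like.

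**Figure D2:**
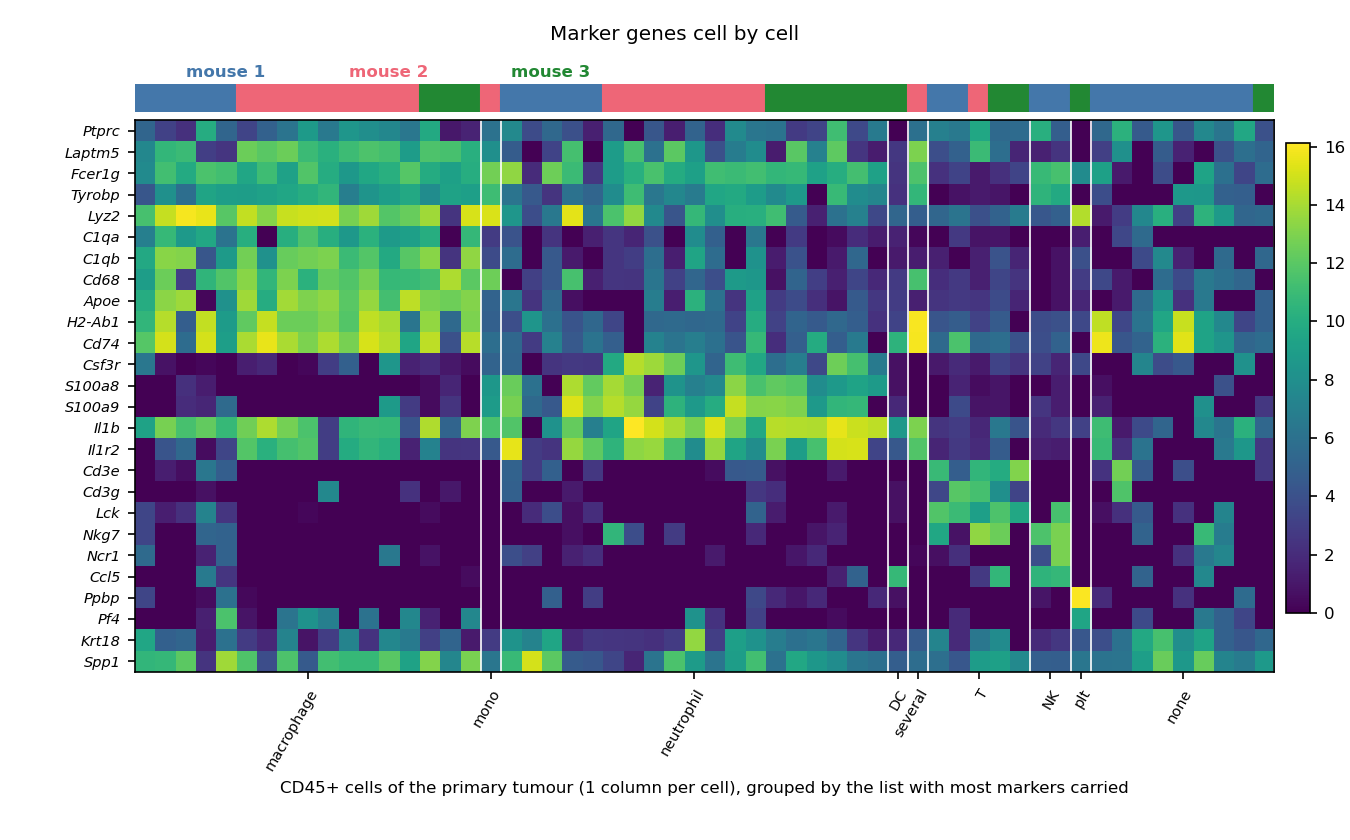
Marker genes (rows) in each of the 56 CD45+ cells (columns), coloured by log2(CPM + 1) and grouped by the list of which the cell carried the most markers; the bar on top gives the mouse (mono, monocyte; DC, dendritic cell; NK, natural killer cell; plt, platelet). Complement and MHC class II genes are high in most of the 17 macrophage-like cells, and S100a8 and S100a9 in most of the 19 neutrophil-like cells. Il1b and Il1r2 were carried by 18 and 15 neutrophil-like cells, but also by 14 and 8 macrophage-like cells. Ptprc is low in most columns.

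The mix differed in its counts between mice, over small numbers. Macrophage-like cells were 5 of 22 in mouse 1 (22.7%, exact interval 7.82 to 45.4), 9 of 20 in mouse 2 (45%, 23.1 to 68.5) and 3 of 14 in mouse 3 (21.4%, 4.66 to 50.8), a mean of 29.7% ± 13.3 (SD, n = 3 mice). Neutrophil-like cells were 5 (22.7%, 7.82 to 45.4), 8 (40%, 19.1 to 63.9) and 6 (42.9%, 17.7 to 71.1), a mean of 35.2% ± 10.9 (SD, n = 3 mice). The intervals of the 3 mice overlap for each of these types. T-like cells numbered 2, 1 and 2, with a mean share of 9.46% ± 4.65 (SD, n = 3 mice), and both cells like natural killer cells came from mouse 1.

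Cells of a myeloid type (macrophage, monocyte, neutrophil or dendritic) were 10 of 22 in mouse 1 (45.5%, 24.4 to 67.8), 18 of 20 in mouse 2 (90%, 68.3 to 98.8) and 10 of 14 in mouse 3 (71.4%, 41.9 to 91.6). Mouse 1 held 8 of the 9 cells without a type. Its cells also carried the most background, with a median of 31.7% of olfactory receptor genes against 9.16% in mouse 2 and 22.5% in mouse 3, and their part in this count was not tested. Over the 46 cells with a type, the myeloid share was 10 of 14 (71.4%), 18 of 19 (94.7%) and 10 of 13 (76.9%), and 38 of 46 (82.6%, 68.6 to 92.2) in all. The labels name 1 tumour per mouse and nothing that would tie cells to separate sorts, so the mouse is the only replicate.

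**Figure D3:**
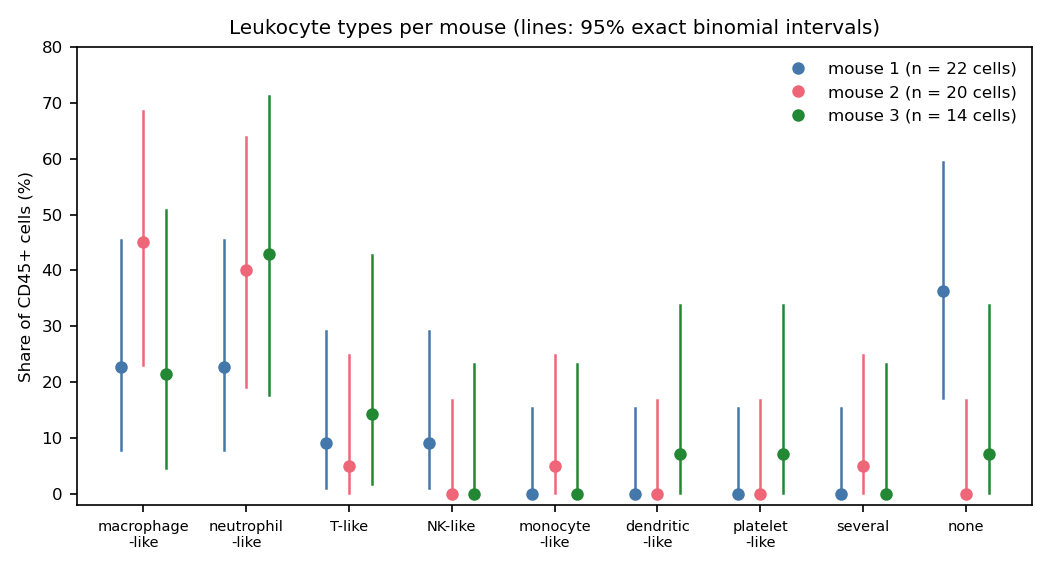
Share of CD45+ cells (%) assigned to each type in mouse 1 (22 cells), mouse 2 (20 cells) and mouse 3 (14 cells), as points with 95% exact binomial intervals as lines. The intervals of the mice overlap for the macrophage-like and neutrophil-like cells, and 8 of 22 cells of mouse 1 but 0 of 20 of mouse 2 have no type.

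The 17 macrophage-like cells carried, besides a median of 7 macrophage markers, the genes of antigen display. The values in this paragraph describe the genes that chose the cells and are no test. Apoe, a lipid carrier, was carried by 16 cells, with 0.213 CPM in the lowest cell, a median of 8279 and 23192 in the highest. Cd68, a lysosomal membrane protein, was carried by 16 (6.89, median 3359, highest 18034 CPM). The 3 chains of complement C1q, a secreted protein that tags debris, were carried by 12 (C1qa), 15 (C1qb) and 13 cells (C1qc), with medians of 798, 3881 and 3359 CPM. Lyz2, the lysozyme of myeloid cells, was carried by 16 cells at a median of 14469.9 CPM. The macrophage markers were not uniform: Arg1, an arginine-degrading enzyme of tumour macrophages, and Mmp12, macrophage elastase, were each carried by 8 of 17, Csf1r, the receptor of the macrophage growth factor, by 6, the mannose receptor gene Mrc1 by 3, and the scavenger receptor gene Cd163 by 0.

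MHC class II genes were not used to assign a type. H2-Ab1, a beta chain of the molecule that displays peptides to helper T cells, was carried by 14 of the 17 macrophage-like cells (27.03 CPM in the lowest, median 5880, highest 26126.5) and by 2 of the 19 neutrophil-like cells (0, median 35.9, highest 1029). Cd74, the invariant chain that escorts class II molecules, was carried by 15 and 5 cells, with medians of 17023 and 41.6 CPM. Of the 14 cells with 4 or more class II genes, 11 were macrophage-like. The other 3 were the cell tied between lists, mouse 2 cell 24, which carried 7 of 7 class II genes with H2-Ab1 at 63541 CPM and Cd74 at 61960.0, and 2 cells without a type. These were mouse 1 cell 21, with 6 class II genes and Cd74 at 53907 CPM, and mouse 1 cell 32, with 4.

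Since class II genes were carried together, the sequence before their starts is shown for those with an entry in the promoter table, from RefSeq build GRCm38.p6, as the 150 bases that precede the start on the gene's strand. The deposited counts name build mm9, and no coordinate of theirs is used. Table entries were found for 4 of the 7 class II genes (H2-Aa, H2-Eb1, H2-DMa and H2-DMb1). Not matched were H2-Ab1, Cd74 and Ciita. Capitals mark TGATTGG, the inverted CCAAT letters of the class II Y box, and GATGATGC, a run shared by the windows of H2-Eb1 and H2-DMb1, and the 2 motifs do not overlap in them.
H2-Aa, chr17:34287824-34287973, minus strand: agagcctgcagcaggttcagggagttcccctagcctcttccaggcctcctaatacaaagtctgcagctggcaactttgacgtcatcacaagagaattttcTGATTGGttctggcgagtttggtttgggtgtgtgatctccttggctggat
H2-Eb1, chr17:34305717-34305866, plus strand: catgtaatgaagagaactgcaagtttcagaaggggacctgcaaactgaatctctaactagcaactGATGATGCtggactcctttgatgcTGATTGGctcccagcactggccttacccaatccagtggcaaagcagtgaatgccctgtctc
H2-DMb1, chr17:34153041-34153190, plus strand: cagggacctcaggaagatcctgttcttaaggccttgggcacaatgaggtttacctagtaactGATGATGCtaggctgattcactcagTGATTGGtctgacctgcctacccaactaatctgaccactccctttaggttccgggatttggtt
TGATTGG begins at position -50 of H2-Aa, -61 of H2-Eb1 and -63 of H2-DMb1, counted back from the annotated start, and GATGATGC at -85 of H2-Eb1 and -88 of H2-DMb1. On either strand of the 150 bases before the start, 1877 of 32851 promoters in the table hold TGATTGG (5.71%) and 113 hold GATGATGC (0.344%). The 2 entries for H2-DMa hold neither. A match is a description of letters and not evidence of binding.

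The macrophage-like cells also carried genes of inflammation and of the tumour. Il1b, the cytokine interleukin 1 beta and a member of the neutrophil list, was carried by 14 of 17 (6.52 CPM, median 2794, highest 19045.5). Spp1, the secreted matrix protein osteopontin, was carried by 14 of 17 (4.47, median 1811, highest 14228) and by 9 of 19 neutrophil-like cells. Spp1 is also abundant in this tumour: it was carried by 76 of 76 GFP+ cells against 31 of 56 CD45+ cells. Whether part of the Spp1 counts in leukocytes came from tumour cells was not tested.

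The 19 neutrophil-like cells were led by inflammatory genes. Again these genes chose the cells. Il1b was carried by 18 (0, median 17145, highest 71273 CPM), Cxcl2, a chemokine that attracts neutrophils, by 15 (0.599, median 2345, highest 15957), and Il1r2, a decoy receptor for interleukin 1, by 15 (4.26, median 2915, highest 47630.2). The calcium-binding alarmins S100a8 and S100a9 were carried by 16 and 15 cells, with medians of 648 and 1723 CPM. Csf3r, the receptor of the neutrophil growth factor, was carried by 9 (0, median 118, highest 20448.5 CPM), so it missed 10 of the cells that the whole list found. Hdc, the enzyme that makes histamine, was carried by 13 and G0s2 by 10. Of the other list members, Trem1 was carried by 7, Clec4d by 6, Mmp9 by 5, Cxcr2 and Retnlg by 1 each and Ly6g by 0. Lyz2 was carried by 11 of the 19 at a median of 201 CPM.

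Genes outside every list divided the same cells, which is a description since both the cells and these genes were chosen from the same values. Genes had to differ in the same direction in each of the 3 mice to be considered. The largest differences of mean log2(CPM + 1), macrophage-like minus neutrophil-like cells, were those of the lysosomal protease Ctss (7.37, carried by 16 of 17 against 2 of 19), Cd83 (6.49, 11 against 0), the protease Ctsz (6.22, 15 against 2) and Cxcl16 (5.83, 13 against 1). In the other direction stood, among others, Mxd1 (-5.56, carried by 0 of 17 against 10 of 19), the nuclear lamina gene Lmnb1 (-5.02, 1 against 10), glutathione reductase Gsr (-5.02, 2 against 8) and haptoglobin, Hp (-3.85, 0 against 5).

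The types were not sharply apart in every cell. The best list was reached with exactly 3 markers in 4 cells, and 3 further cells stopped at 2. In 5 cells the 2 best lists differed by 1 marker or none. At least 3 macrophage and 3 neutrophil markers together were carried by 9 cells, and 1 cell, mouse 2 cell 30, carried 9 macrophage and 10 neutrophil markers. That cell also carried 8 epithelial markers, with Krt18 at 11705 and Krt19 at 6261 CPM. Mouse 1 cell 38 was the 1 cell with at least 3 T and 3 myeloid markers. No doublet caller was run on so few sorted cells, and whether 2 cells entered a tube was not tested.

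The 5 T-like cells differed among themselves. Lck, the kinase that starts receptor signalling, was carried by 5 of 5 (542 to 3462 CPM), as was Lat, its adaptor (164 to 2144 CPM), and Cd3e by 4. Mouse 1 cells 26 and 39 carried Tnfrsf4, a receptor of activated T cells, at 11406 and 28932 CPM, and cell 39 carried the activation genes Il2ra (827 CPM) and Icos (2390.4 CPM) and Gzmb (4261 CPM) as well. Mouse 2 cell 25 carried Nkg7 at 11363 CPM, granzyme B (Gzmb) at 10023 CPM and 9 proliferation genes, with Mki67 at 2429 CPM. Mouse 3 cell 70 was the 1 cell of the 56 that carried Cd8a (3821 CPM), with Nkg7 at 5901 and the inhibitory receptor gene Pdcd1 at 3191 CPM. Mouse 3 cell 79 carried Il7r, a cytokine receptor of resting T cells, at 36526 CPM, with S1pr1 at 1843 and Ccr7 at 202 CPM, receptors that guide circulating cells. Cd4 and Foxp3 were carried by 0 of 56 cells, the highest Cd4 level being 60.1 CPM.

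The remaining types rest on single cells. Both cells like natural killer cells carried Nkg7, a granule membrane protein (3198 and 7441 CPM), the chemokine Ccl5 (1423 and 1691 CPM) and Txk, and mouse 1 cell 36 also carried Ncr1, an activating receptor, at 7674 CPM. Cd3e had no count in either. The dendritic-like cell, mouse 3 cell 81, carried the homing receptor Ccr7 at 20310.5 CPM and Flt3 at 1532 CPM, but Ptprc had no count in it. It carried 2 of the 7 class II genes, Cd74 at 1395 and H2-Eb1 at 952 CPM, and H2-Ab1 stood at 8.32 CPM. The monocyte-like cell, mouse 2 cell 32, carried Ly6c2 at 2482 and Plac8 at 1077 CPM. The platelet-like cell, mouse 3 cell 73, carried 6 platelet markers, with the chemokine precursor Ppbp at 66809 and the platelet tubulin Tubb1 at 12361 CPM. Its DNA came to 17549 counts, the second lowest of the 56, and it also carried Lyz2 (19783 CPM) and the haemoglobin gene Hba-a1 (1320 CPM).

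Among the neutrophil-like cells 2 stood out for granule genes, and they were chosen after their values were seen. Mouse 2 cell 26 held the myeloperoxidase gene Mpo at 230940 CPM, where the next cell had 410, the neutrophil elastase gene Elane at 42302 CPM (next cell 78.4), and Ms4a3, Prtn3 and Ctsg at 5009, 2108 and 1296 CPM. These primary granule genes are made by neutrophil precursors in bone marrow. The same cell carried 6 of 14 proliferation genes. Mouse 1 cell 37 held the secondary granule genes Ngp at 156326, Ltf at 10569 and Camp at 5149 CPM, and mouse 2 cell 26 followed for Ngp at 48212 CPM.

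The 9 cells without a type held less RNA above background in the median, but not each of them did. Their median was 104746 RNA counts, and a median of 42.7% of these lay in carried genes. This share had medians of 96.1% in macrophage-like, 95.1% in neutrophil-like and 94.3% in T-like cells. Over the 9 cells it ran from 3.48% to 95.1%, with mouse 1 cells 21 and 23 at 95.1% and 91.9%. Among the untyped cells, mouse 1 cell 32 carried the B-cell genes Cd79b (12767 CPM) and Ms4a1 (572 CPM). These are 2 of the 3 markers needed, and the cell also carried 4 class II genes. Mouse 1 cell 23 carried Cd3e and Cd3g, also 2. Cd79b was not confined to cell 32: T-like cell 26 of mouse 1 carried it at 5094 CPM. Macrophage-like cells 30 and 38 of mouse 1 carried it at 3319 and 184 CPM. Mouse 3 cell 80 carried no marker of a leukocyte type, with Map1b, a neuronal microtubule gene, at 173632 CPM.

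The 7 markers were spread unevenly over the cells. The effective number of cells, the inverse of the sum of squared shares of the summed CPM, would be 56 if every cell held the same level and 1 if a single cell held all. Lyz2 was the most even of the 7, with a mean of 8614 CPM, a count in 56 of 56 cells and an effective number of 14.1, and its highest cell gave 12.6% of the sum. Ptprc followed with 11.6 (mean 213 CPM, highest cell 19.3%), C1qa with 10.0 (278 CPM, 20.4%) and H2-Ab1 with 9.53 (5059 CPM, 22.4%). The lymphoid and neutrophil genes were held by far fewer cells: Nkg7 had an effective number of 4.43 (577 CPM, 35.1%), Csf3r 4.31 (983 CPM, 37.2%) and Cd3e 3.20 (357 CPM, 42.9%). The 5 highest cells gave 47.97% of the Lyz2 sum but 92.04% for Nkg7, 89.7% for Csf3r and 98.5% for Cd3e.

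Set beside genes of like mean level, Ptprc was even and the others were not unusual. Counts too low to be called carried enter these numbers: Ptprc was carried by 12 of 56 cells, at a median of 43.7 CPM over all 56. The part of genomic background in its evenness was not tested. Ptprc stood at the 94.3rd percentile of effective number among 1174 genes of like level, whose median was 3.804. C1qa stood at the 88.8th percentile (median 3.95), H2-Ab1 at the 46.4th (median 10.0), Nkg7 at the 44.1st (4.90), Cd3e at the 38.5th (4.36), Lyz2 at the 35.7th among only 14 genes (15.9) and Csf3r at the 31.5th (7.02). Of the pan-leukocyte genes Tyrobp and Fcer1g were more even than Ptprc, with effective numbers of 20.6 and 20.4. Over the 1564 genes with a mean of at least 100 CPM the median was 4.17, with a range of 1.01 to 32.1, and 58.4% lay under 5.

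The most even genes, predicted genes left out, were Pfn1 (profilin, 32.1), Tmsb4x (thymosin beta 4, 30.5), the nuclear RNA Malat1 (29.8), Cfl1 (cofilin, 27.04) and the ferritin chain Fth1 (24.9). The 5 least even genes each stood in a single cell: Mpo and Elane in mouse 2 cell 26, Ppbp in mouse 3 cell 73, Cracr2a in mouse 3 cell 79 and Mfsd8 in mouse 1 cell 24, each with an effective number of 1.01. Mouse 1 cell 24, in which Mfsd8 stood at 174731 CPM, was one of the cells in doubt.

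**Figure D4:**
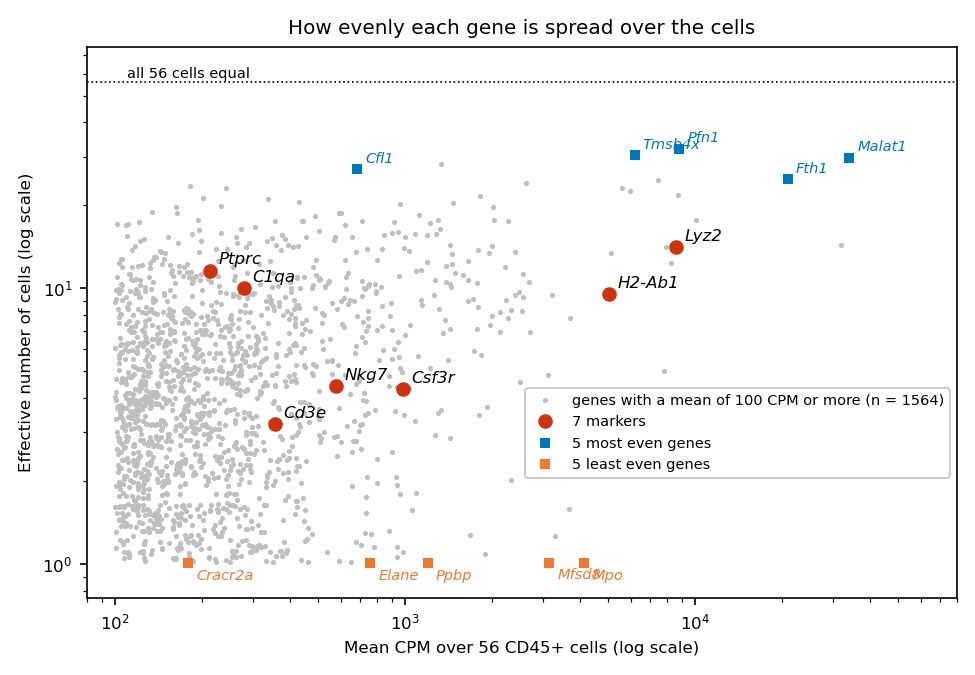
Effective number of cells (vertical axis, log scale) against the mean CPM over the 56 CD45+ cells (horizontal axis, log scale) for 1564 genes with a mean of at least 100 CPM, with the 7 markers in red, the 5 most even genes in blue and the 5 least even in orange. Lyz2, Ptprc, C1qa and H2-Ab1 lie near 10, Nkg7, Csf3r and Cd3e between 3 and 5, and no gene reaches the dotted line at 56.

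Within mice the markers differed in how many cells carried them. Lyz2 was carried by 9 of 22 cells in mouse 1, 17 of 20 in mouse 2 and 6 of 14 in mouse 3, with medians of 129, 4425 and 53.9 CPM. Csf3r was carried by 0, 6 and 3 cells, with means of 28.7, 2267 and 648 CPM, and none of the 5 neutrophil-like cells of mouse 1 carried it. C1qa was carried by 3, 8 and 2 cells, H2-Ab1 by 7, 10 and 2, Nkg7 by 4, 2 and 1, and Cd3e by 2, 1 and 2. A single cell gave 97.2% of the Cd3e sum of mouse 2 and 99.95% of the Nkg7 sum of mouse 3.

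The markers combined in few ways. All 13 cells that carried C1qa also carried Lyz2, and 10 of them carried H2-Ab1. Csf3r and H2-Ab1 were carried together by 0 cells, C1qa and Cd3e by 0, and Csf3r and C1qa by 1. Of the 5 cells with Cd3e, 3 carried Nkg7. None of the 7 markers was carried by 10 of the 56 cells, 1 marker by 14, 2 by 18, 3 by 9 and 4 by 5. No cell carried more than 4.

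Clustering of the cells without reference to markers gave a coarser picture, with 6 clusters of 3, 14, 10, 20, 2 and 7 cells. Cluster 3 held 10 cells, all neutrophil-like by their own markers, and was led by S100a8, Hdc, S100a9, Il1b, G0s2 and Il1r2, with differences of 7.002, 6.48, 6.46, 6.41, 6.09 and 6.06 in mean log2(CPM + 1) from the other cells. It can be called neutrophil-like. The other clusters stayed without a name. Cluster 1, with 3 macrophage-like cells of mouse 2, was led by Mmp12, Gaa and Depdc7, and cluster 2, with 12 of 14 cells from mouse 2 and 8 macrophage-like, by Arhgdia, Spi1 and Ifi30. Cluster 4, with 17 of 20 cells from mouse 1, mixed macrophage-like, neutrophil-like, T-like and untyped cells and was led by Cd79b, Pisd and Cd2. Cluster 5, 2 cells of mouse 1, was led by Pydc4, Klra1 and Cd96, and cluster 6, 7 cells of mice 1 and 3, by Txk, Ccr7 and Gimap3. Clusters thus followed the mouse as well as the type, and the types above rest on each cell's own markers.

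The gate was then checked by comparing shares of cells with a marker against GFP+ cells, the sort that should lack leukocyte RNA. Every cell was thinned to 10000 counts, with 0 cells left out, since the median depth was 784903 RNA counts in CD45+ and 1614521 in GFP+ cells. Ptprc then had a count in 50%, 50% and 35.7% of the CD45+ cells of mice 1, 2 and 3, against 9.68%, 5.56% and 0% of the GFP+ cells. Lyz2 had one in 54.5%, 95% and 42.9% against 0%, 22.2% and 11.1%, and C1qa in 22.7%, 55% and 14.3% against 0%, 5.56% and 0%. All CD45+ mice lay above all GFP+ mice for these 3 genes. The same held for Nkg7 (27.3%, 10% and 7.14% against 0% in each), H2-Ab1 (63.6%, 55% and 21.4% against 12.9%, 11.1% and 3.70%) and Csf3r (18.2%, 50% and 35.7% against 3.23%, 16.7% and 7.41%).

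For Cd3e the groups overlapped, with 18.2%, 5% and 14.3% against 0%, 5.56% and 0% (exact permutation test over mice, two-sided, p = 0.2, n = 3 and 3). The other 6 markers each had p = 0.1 in the same exact test, which is the smallest p that 3 mice against 3 can give. Over all 20493 genes with a count in a thinned cell, 3.76% separated the mice in this direction. So did 6 of the 7 markers, 11 of 12 pan-leukocyte genes and 9 of 15 macrophage genes. Of other lists, 6 of 7 class II, 9 of 14 neutrophil and 7 of 14 monocyte genes did. The share was lower for T-cell (5 of 17), dendritic (3 of 13), B-cell (2 of 10) and natural killer genes (1 of 14). In the opposite direction, 2 monocyte, 2 dendritic and 1 T-cell gene separated the mice. Without the 7 cells in doubt Csf3r overlapped as well (11.8%, 47.4% and 38.5%, exact permutation p = 0.2), which left 5 of 7. This test compares mice without pairing them: within each mouse the Csf3r share was higher in CD45+ than in GFP+ cells also then, with n = 3 pairs. Without thinning, Ptprc had a count in 100%, 95% and 85.7% of CD45+ cells against 54.8%, 38.9% and 44.4% of GFP+ cells, and Lyz2 in 100% against 38.7%, 61.1% and 74.1%. Genomic background stands in both sorts, so these unthinned shares are not expression. It was not equal: the median share of olfactory receptor genes with a count was 24.4% in CD45+ and 12.6% in GFP+ cells. Thinning evens the depth but does not remove this background. By shares of cells carrying the gene, Csf3r overlapped (0%, 30% and 21.4% against 0%, 0% and 3.70%, exact permutation p = 0.4). The other markers then separated the sorts, Cd3e among them.

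Sums over the cells of a mouse and sort were compared with edgeR, CD45+ against the mean of the GFP+, EpCAM+ and GFP+EpCAM+ sums. In such sums, fewer cells of a type and less RNA per cell cannot be told apart. Of 19703 genes, 992 rose (5.03%) and 175 fell (0.888%) at a Benjamini-Hochberg adjusted p of 0.05. Over all tested genes the median of the log2 differences was 0.25. With the mouse as a block, 541 rose and 117 fell. The split depended on the tool: DESeq2 called 1368 higher and 1580 lower, with a median over its genes of 0.72, and limma on means over cells of log2(CPM + 1) 416 and 828. Without the 7 cells in doubt edgeR called 1046 and 323.

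The leukocyte lists differed in how many of their genes rose, beside 5.03% of all genes. All 12 pan-leukocyte genes were called higher by edgeR, with a median log2 difference of 8.17, as were 12 of 12 neutrophil genes tested (median 9.62), 7 of 7 MHC class II genes (6.58) and 12 of 15 macrophage genes (7.31). Of the T-cell list 11 of 17 rose, of the natural killer list 5 of 9, of the monocyte list 8 of 14, of the dendritic list 6 of 13 (median 2.15) and of the B-cell list 4 of 8 (Cd79b, Ms4a1, Cd22 and Blnk; median 2.66). Cd79b was carried by 4 CD45+ cells, all of mouse 1, Ms4a1 and Cd22 by 1 each and Blnk by 0. Of the list of mast cells, basophils and eosinophils Siglecf alone rose, 1 of 9 (median 0.56). These shares are over genes that passed a filter on counts, which a gene high in the CD45+ sums alone can pass. The full lists held 14 neutrophil, 14 natural killer, 10 B-cell and 13 mast-cell genes. The shares describe the lists and are no test of them. Of the epithelial list Krt18 and Muc1 fell and Spint1 rose, of 12 tested, and of the fibroblast list Lum and Sparc fell and Thy1, which T cells also use, rose. No gene of the proliferation list (14 tested) or of the acinar list (5 tested) was called.

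The 7 markers had CD45+ levels far above the other sorts in the edgeR fit. Lyz2 stood at 22170.0, 12531 and 8657 CPM in the CD45+ sums of mice 1, 2 and 3 and at means of 5.02, 37.5 and 3.08 CPM in GFP+, EpCAM+ and GFP+EpCAM+ sums (log2 difference 10.36 ± 0.87, SE, adjusted p = 6.42e-09 by edgeR). Ptprc stood at 378, 160.0 and 461 CPM against 1.47, 2.26 and 4.08 (7.09 ± 1.11, edgeR adjusted p = 8.53e-05), the lowest of the 7. Csf3r stood at 5.46, 2472 and 946 CPM, so that mouse 1 was low, against 2.001, 0.699 and 0.456 (10.64 ± 1.18, edgeR adjusted p = 5.69e-07). Log2 differences of C1qa, Nkg7, Cd3e and H2-Ab1 were 10.85, 11.36, 9.85 and 7.16, and all 7 held when any mouse was left out. The sums add counts, so cells with more counts weigh more in them. As a mean over cells, Lyz2 was highest in mouse 2 (10755 CPM), with 8791 in mouse 1 and 5279 in mouse 3.

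Many of the highest differences rested on few cells. Ppbp had the largest, 13.50 ± 1.64 (SE, edgeR adjusted p = 2.37e-06), but its 3 CD45+ sums were 1.96, 0.167 and 4685 CPM, the last from the platelet-like cell. Without mouse 3 it had too few counts to be tested, and limma on means over cells did not call it (adjusted p = 0.0570 and 0.0950 at the 2 pseudocounts). Fcgr4, an antibody receptor (12.06, edgeR adjusted p = 5.09e-06), stood at 2.30, 1976 and 6.05 CPM, and without mouse 2 its difference was 4.27. Tnfrsf4 (11.65, edgeR adjusted p = 2.85e-05) stood at 3077, 0.557 and 1.60 CPM, and without mouse 1 its difference was 6.46. By contrast Lilrb4a, an inhibitory receptor of myeloid cells (11.69 ± 0.95), stood at 2509, 1948 and 3048 CPM, and the chemokine gene Ccl3 (11.57 ± 0.96) at 2041, 3043 and 3039.6 CPM, both with an edgeR adjusted p of 5.35e-09. Cd3g (12.54), G0s2 (11.84) and the cytokine gene Osm (11.57) completed the 8 largest, and each kept its call without any one mouse.

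Most of the largest calls in the other direction were lost with 1 mouse left out. Sult1c2, a sulfotransferase, stood at 8.43, 1.75 and 1.26 CPM against means of 423, 753 and 460 CPM (-7.61 ± 1.503, edgeR adjusted p = 0.00113) and kept its call without any one mouse. Parm1 (-7.29, edgeR adjusted p = 0.00193) lost it without mouse 2 (adjusted p = 0.0857), as did Stra6 (-8.44, edgeR adjusted p = 0.0208), with 0.410 without mouse 2, 0.0651 without mouse 3 and 0.0975 with the mouse as a block. P3h4, Ambp, Hes1 and Cox19 (-7.83, -7.48, -7.45 and -7.24) lost it without any one of the mice, at edgeR adjusted p from 0.0562 to 0.260, and Cox19 also with the block (0.0886). Tmem254c had 0 counts in the CD45+ sums and means of 60.4, 40.02 and 73.2 CPM in the other sorts. It shares sequence with near-identical copies, so its counts are uncertain.

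A list of genes of alternative activation and of tissue macrophages was also tested. Of its 12 genes, Arg1, Chil3, Folr2 and Mmp12 were called higher by edgeR, Spp1 alone was called lower and 7 were not called. Chil3 and Folr2 were carried by only 3 and 2 of the CD45+ cells. Arg1 stood at 360.0, 174 and 47.1 CPM in the CD45+ sums against 0.184, 1.45 and 0.0543 (9.15 ± 1.27, edgeR adjusted p = 1.72e-05). Spp1 stood at 1921, 1049 and 2476 CPM against 27659, 13338 and 20602 (-3.46 ± 0.55, edgeR adjusted p = 9.77e-05). Spp1 thus stood at 1049 CPM or more in each CD45+ sum and below the mean of each of the other sorts. Whether tumour cells gave part of the Spp1 counts in the CD45+ sums was not tested.

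DNA of the same cells was not used to choose or type them. Dosage was taken as counts per bin over the cell's autosomal mean, in 53 CD45+ and 63 GFP+ cells with at least 50000 DNA counts (the RNA filter was not applied to the latter), and averaged per mouse. CD45+ cells lay near 1 on every autosome, with means from 0.944 to 1.07, and at 0.500 ± 0.00435 (SD, n = 3 mice) on X, as a single X gives. In limma, 12 of 20 chromosomes (60%) differed between the sorts, and 15 with the mouse as a block, which added 1, 11 and 19 as lower in CD45+ cells. CD45+ cells were higher on 4, 7, 9, 10, 12, 13 and 14 and lower on 2, 3, 5, 15 and 17. Chromosome 10 stood at 0.968, 0.975 and 0.955 in CD45+ cells of mice 1, 2 and 3 and at 0.751, 0.752 and 0.759 in GFP+ cells (log2 difference 0.36 ± 0.03, limma adjusted p = 2.45e-04). Chromosome 3 stood at 0.997, 0.918 and 1.00 against 1.41, 1.18 and 1.26 (-0.40 ± 0.07, limma adjusted p = 0.00376).

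Cell by cell, the mean dosage of the 7 chromosomes over that of the 5 had a median of 1.01 in CD45+ cells (0.611 to 1.28) and 0.637 in GFP+ cells. The chromosomes were chosen by this contrast, so this is a description. The ratio lay under 0.8 in 1 of 53 CD45+ and 60 of 63 GFP+ cells. The 1 CD45+ cell was mouse 3 cell 80, with a ratio of 0.611, an X dosage of 0.791 and a Y dosage of 0 over 745933 DNA counts. This is the untyped cell that reached no marker of a leukocyte type and carried 1 of the 12 pan-leukocyte genes, Cd53. Medians were 1.02 in macrophage-like (16 cells), 1.00 in neutrophil-like (18), 1.02 in T-like (5) and 1.01 in untyped cells (9), and 8 of the 9 untyped cells lay above 0.8. Mouse 2 cell 30, with its 8 epithelial markers, had a ratio of 0.888.

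**Figure D5:**
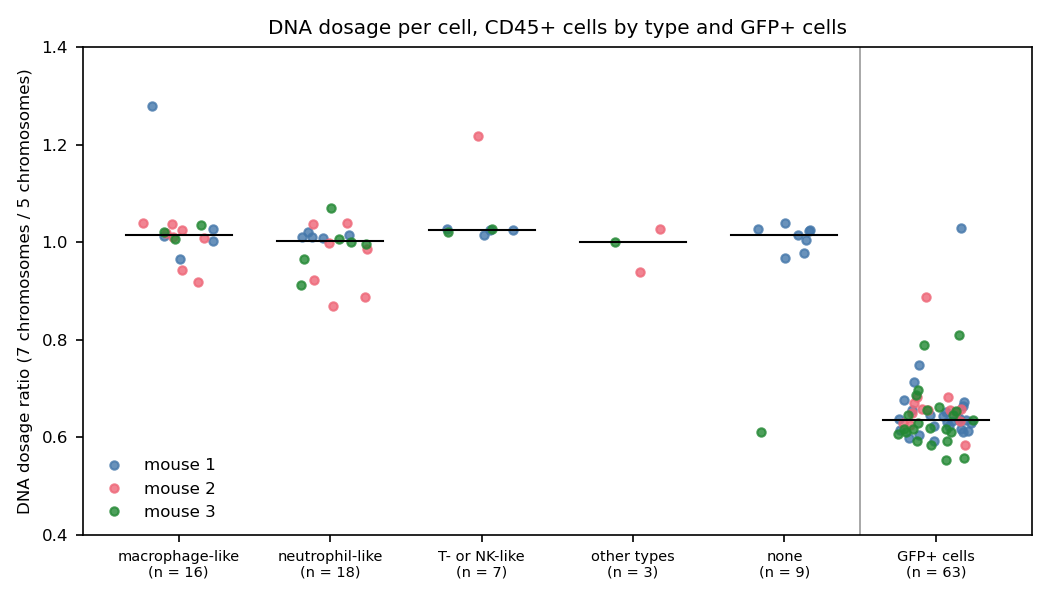
Mean DNA dosage of 7 chromosomes over that of 5 chromosomes (vertical axis) for each CD45+ cell by type and for GFP+ cells, with 1 point per cell coloured by mouse, black lines at the medians and random horizontal spread. Medians of the CD45+ types lie between 1.00 and 1.02, single cells reach from 0.868 to 1.28 apart from 1 untyped cell of mouse 3 at 0.611, and 60 of 63 GFP+ cells lie under 0.8.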

How the data were processed

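Single cells of 3 tumour-bearing mice gave RNA and DNA. The authors deposited an RNA table of expected counts for genes (97.4% of its values whole, with no tolerance), and the DNA table holds counts in 5000 bins (4730 autosomal, 267 on X, 3 on Y), as deposited by the authors. STAR, kallisto, Bowtie 1.0 and build mm9 are named in the submitters' processing notes, with no role or order for any of them. Per the labels' design text, exonic reads were taken as RNA and nonexonic reads as DNA. The RNA table has 24520 rows, from which 92 spike-ins (3.48e-04% of counts) and 4 duplicates of a symbol were dropped. No 2 of 512 pairs of CD45+ libraries within a mouse agreed within sampling noise (lowest chi-square per degree of freedom 1.86 for DNA and 4.00 for RNA).

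CPM were computed per cell. Cells were typed by the markers they carried. The clustering first chosen to define types (Ward, 10 principal components of 1000 variable genes) was seen to mix types, so typing by markers leads the text and clusters are given by number. Expected counts were rounded to whole numbers and summed per mouse and sort, and the 12 sums (8346119 to 84359714 counts) were fitted with edgeR 4.0.16 quasi-likelihood (TMM, default filter, Benjamini-Hochberg over all genes at 0.05, biological coefficient of variation 1.16). DNA dosage was fitted with limma 3.58.1. Alternatives used DESeq2 1.42.0, limma, other filters, thresholds and linkages, the mouse as a block, and omission of each mouse in turn. In simulated data for this comparison (18835 genes), genes were raised or lowered 4-, 16-, 64- or 256-fold in the CD45+ sums. The edgeR fit recovered 4%, 18%, 54% and 62% of them, both directions pooled, with 5 false calls. Mouse numbers pair sums of the same animal, and deviations of log2 CPM had a median correlation of 0.0619 (0.0208 to 0.284) within and -0.0429 between mice.

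Members, lists, tests and most alternatives were chosen with earlier results of these data known. The carried thresholds, the background gauge and the 7 doubtful cells were set after values were seen. Named genes were the 7 markers, up to 4 members per leukocyte list with a count in the most cells, up to 6 leading genes per cluster, up to 8 called genes per direction (mean of 10 CPM or more, same direction in 3 of 3 mice, no predicted or Y-linked genes), and the 5 most and 5 least even genes. Other genes and single cells were chosen after their values were seen.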

Additional observations from a re-analysis of the deposited data

Results flagged for a closer look

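A bulk library of CD45+ cells of mouse 1 enters no comparison above. Its marker levels stood above those in the bulk GFP+ library of the same mouse. None of them reached the 100 CPM asked of a carried gene. Ptprc stood at 49.5 CPM against 10.1, Lyz2 at 90.8 against 4.22, Csf3r at 49.5 against 0.844, Cd3e at 24.8 against 0 and H2-Ab1 at 74.3 against 17.7. The CD45+ bulk library had 121118 RNA counts, so these levels rest on 6, 11, 6, 3 and 9 counts, and 84.98% of the olfactory receptor genes had a count in it, against 38.2% in the GFP+ bulk. C1qa and Nkg7 had 2 counts each, under the 3 counts taken as a floor. The mean of the single CD45+ cells of mouse 1 was higher for Lyz2 (8791 CPM), H2-Ab1 (4671) and Ptprc (254), and lower for Csf3r (28.7). The part of genomic background in the bulk values was not tested.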

How the results depend on the processing

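Counts of genes depended on the fit and on the samples in it. Genes higher in CD45+ cells (992) came to 541 with the mouse as a block, 416 and 394 with limma at a pseudocount of 1 and 0.1, 173 with CD45+ and GFP+ sums only, and 656 to 1080 with a mouse left out. Genes lower (175) came to 1580 with DESeq2, 828 and 1159 with limma, 37 with CD45+ and GFP+ sums only, 323 without the cells in doubt (chosen after seeing the data), and 28 to 77 without a mouse. No value changed direction under any of these. Besides the calls of Stra6 and Cox19 and the 3 added chromosomes, the block changed no call of a named gene or chromosome.

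Clusters were unstable. The neutrophil-like cluster (10 cells) held 17 with 2000 genes, 16 with markers only, 19 with average linkage, 19 when each cell was typed alone, and 5 to 9 without a mouse. The cluster with most macrophage markers (14) held 9 with 500 genes, 9 with 7 clusters, 23 with average linkage, 8 under the strict cell filter and 6 to 10 without a mouse, and the number of clusters (6) was 3 to 8 without a mouse. Typing by own markers gave 15 to 17 macrophage-like and 18 to 19 neutrophil-like cells over 4 other thresholds, and 8 to 14 and 11 to 14 without a mouse, where fewer cells are typed. The median effective number of cells of the 7 markers (9.53) was 8.13 under the strict filter and 4.53 to 8.12 without a mouse, where fewer cells can be counted. The median share of cells with a count (80.4%) was 46.4% at 5 counts and 33.9% after thinning.

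Limits are few cells, 3 mice, genomic background in the RNA counts, and DNA-rich cells in which low genes cannot be told from it. For genes raised or lowered 4-fold the power of the edgeR fit was low.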
